A study of Mus musculus with 29 samples.

Results

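The insulin and insulin-like growth factor (IGF) signalling genes described here were 10 genes chosen by symbol out of the 24499 gene symbols counted in the mouse hypothalamus. They were the growth factor gene Igf1, the receptor genes Igf1r and Insr, the adaptor genes Irs1 and Irs2, and the binding protein genes Igfbp2, Igfbp3, Igfbp4, Igfbp5 and Igfbp6. All 10 had a row in every complete count file, and all 10 passed the filter on low counts that left 16916 genes for testing. The study followed wild-type C57BL/6 mice, all labelled male, with RNA from dissected hypothalamus sequenced at 9 ages. The ages were postnatal day 5 (P5), 3, 4 and 5 weeks, and 2, 6, 12, 18 and 24 months. No group carried a transgene, a deletion or a treatment, and per the labels the mice were housed alone with free food and a daily light cycle. The 4-week and 5-week ages had 4 libraries each, 24 months had 2, and each of the other ages had 3, which makes 28. Libraries are named by the replicate number in their label.

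Insulin and IGF1 bind related receptor tyrosine kinases, encoded by Insr and Igf1r, which phosphorylate the adaptor proteins IRS1 and IRS2. The adaptors recruit PI3-kinase, which activates Akt; Akt in turn raises mTOR complex activity and holds FoxO transcription factors out of the nucleus. IGF-binding proteins hold IGFs outside the cell, prolong their life and set how much reaches the receptor, until proteases cleave them. In the hypothalamus, insulin acting on neurons lowers food intake and liver glucose output, loss of Irs2 in mice leads to overeating, and IGF1 takes part in brain growth and in the onset of puberty.

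Promoter sequence was read for the members from RefSeq (GRCm38.p6), as the 250 bases before each listed transcript start. A window was found for 9 of the 10 genes, and none for Insr. The 4 windows below are shown because Irs1 and Irs2, close relatives, moved in opposite directions between P5 and 3 weeks, and because Igfbp2 and Igfbp5, neighbours on chromosome 1, both fell over that step, as 7 of the 10 members did. All read 5′ to 3′ on the gene's own strand and end at the base before the start. Capitals mark the E-box CACGTG and CAAAACA, the core of the insulin response element that FoxO factors bind in other genes, on either strand.
Irs1 promoter, chr1:82291440-82291689, minus strand: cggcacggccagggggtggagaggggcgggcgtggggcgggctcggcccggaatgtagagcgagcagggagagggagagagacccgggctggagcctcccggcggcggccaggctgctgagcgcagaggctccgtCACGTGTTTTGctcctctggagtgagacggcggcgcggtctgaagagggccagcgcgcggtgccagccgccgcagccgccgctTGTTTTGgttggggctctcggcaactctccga
Irs2 promoter, chr8:11008930-11009179, minus strand: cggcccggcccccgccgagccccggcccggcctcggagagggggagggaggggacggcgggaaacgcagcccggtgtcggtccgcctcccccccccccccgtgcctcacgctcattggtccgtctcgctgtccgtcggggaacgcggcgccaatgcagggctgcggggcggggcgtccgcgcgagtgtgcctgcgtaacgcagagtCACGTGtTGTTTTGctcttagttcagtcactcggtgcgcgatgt
Igfbp2 promoter, first of 2 listed starts, chr1:72824230-72824479, plus strand: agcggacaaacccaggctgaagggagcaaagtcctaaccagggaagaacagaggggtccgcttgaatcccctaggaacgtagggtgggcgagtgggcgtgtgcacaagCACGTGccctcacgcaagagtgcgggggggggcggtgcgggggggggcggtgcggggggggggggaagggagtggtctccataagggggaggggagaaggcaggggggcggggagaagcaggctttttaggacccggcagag
Igfbp5 promoter, chr1:72874866-72875115, minus strand: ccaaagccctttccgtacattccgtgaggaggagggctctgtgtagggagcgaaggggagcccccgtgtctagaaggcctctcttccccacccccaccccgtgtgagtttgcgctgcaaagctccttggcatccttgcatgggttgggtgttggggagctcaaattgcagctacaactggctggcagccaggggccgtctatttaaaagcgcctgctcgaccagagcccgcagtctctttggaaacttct

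Irs1 and Irs2 both held an E-box next to the insulin response element core. In Irs1 the E-box began 115 bases before the start and shared letters with a core at 111, and another core lay at 32. In Irs2 the E-box began 44 bases before the start and a core at 37. Of 32851 RefSeq promoter windows of this length, 6.02% held CACGTG, 5.56% held CAAAACA and 97 windows, 0.295%, held both. Among the other members, the first Igfbp2 window held an E-box at 142, and no window held CAAAACA. The FoxO site GTAAACA, present in 3.17% of windows on either strand, was in none of the members' windows. TATAAA, in 12.4% of windows, lay 28 bases before the Igfbp4 start and 148 before the Igfbp6 start. A match of letters is a description and not a binding site.

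The genes lie on 6 chromosomes in GENCODE M21 (GRCm38). Igf1 spans chr10:87858265-87937042 and Igf1r chr7:67952827-68233668, both on the plus strand. Insr spans chr8:3122061-3279617, Irs2 chr8:10984681-11008458 and Irs1 chr1:82233101-82291416, all on the minus strand. Igfbp2 (chr1:72824503-72852474, plus) and Igfbp5 (chr1:72857932-72874884, minus) face each other with their ends 5457 bases apart. Igfbp3 spans chr11:7206086-7213923 (minus), Igfbp4 chr11:99041244-99054392 (plus) and Igfbp6 chr15:102144362-102149511 (plus). The exons of Irs1 share 2822 bases with Gm9747 on the opposite strand, and those of Irs2 share 162 bases with the antisense 9530052E02Rik, counted 5 to 31 times per library. The strand setting of the counting was among the details missing from the sources, so reads of such pairs cannot be told apart.

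A library held 24661631 to 39783779 gene counts, so 3 counts amounted to 0.0750 to 0.118 CPM (counts scaled to a fixed library size). All 10 hypothalamus markers (Avp, Oxt, Pomc, Agrp, Hcrt, Pmch, Otp, Six6, Nr5a1, Sim1) were above 0 in every library, with a summed level of 155.5 to 221.9 CPM at P5 and at least 362.1 CPM from 6 months on. At 2 months the sum was only 57.8 to 200.3 CPM, against 550.8 to 902.2 at 5 weeks, with 9 of the 10 markers called lower by edgeR. The 6-month sums also lay below every 5-week library, with 1 of the 10 markers called lower. Thalamus markers summed to 466.8 to 1305 CPM over all ages. P5 replicates 1 and 2, labelled male, held Xist at 746 and 791 CPM and Ddx3y at 0, while P5 replicate 3 held 0.223 and 55.1 CPM, so results against P5 are also given with replicate 3 alone. A further 24-month file, with counts in only 1385 genes, was left out.

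Over the 9 ages, 9 of the 10 members differed in level by edgeR's F-test at an adjusted p below 0.05, where 76.8% of all genes tested did. Igfbp6 did not pass (adjusted p = 0.09). Without P5, 6 members passed, Irs1, Igfbp2 and Igfbp4 no longer being called. The share of all genes passing without P5 was not recorded, so that count has no background beside it. Between P5 and 3 weeks 8 members changed, 7 lower and 1 higher, against 59% of all genes called, 29.3% lower and 29.8% higher. The members' median log2 fold change was -0.73, and the median over all genes was -0.01. Igf1, Insr, Irs1, Igfbp2, Igfbp3, Igfbp4 and Igfbp5 fell, Irs2 rose, and Igf1r and Igfbp6 were not called. With P5 replicate 3 alone, the log2 fold change of Insr was -0.33, against -0.32 with every P5 library. Cell type markers moved widely over this step. The 5 oligodendrocyte markers reported here (Mbp, Mog, Mobp, Cnp, Mag) all rose, from a sum of 246.2 to 334.9 CPM at P5 to 12544 to 15016 CPM at 3 weeks, and 5 of 6 astrocyte markers rose, from a sum of 1502 to 1615 to one of 3685 to 3888 CPM. The 6 markers of progenitors and immature neurons all fell, from 2860 to 2930 down to 239.5 to 246.2 CPM. Bpifa2 and Rn7s2, genes that mark a set of libraries described below, summed to at most 0.201 CPM at P5 and to 35.8 to 48.4 CPM at 3 weeks. The P5 and 3-week libraries therefore differ in this library set as well as in age. The part of the cell types and of the library set in the members' changes was not tested. P-values here measure only the spread between these libraries, since the labels do not say more of how replicates were taken.

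**Figure D1:**
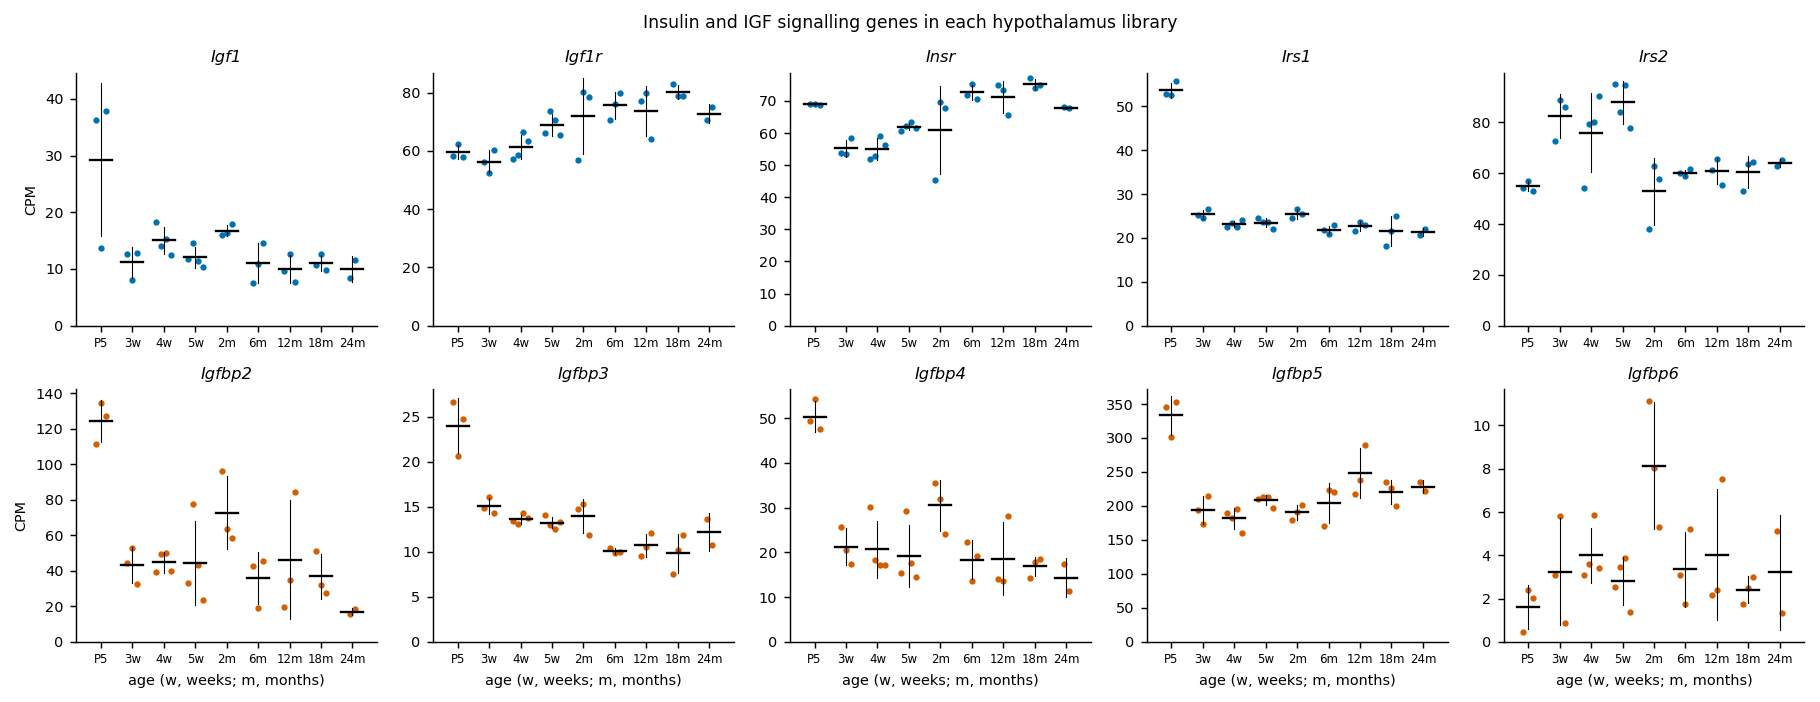
Level of each of the 10 genes in CPM (vertical axis, from 0) against age (horizontal axis), with 1 point per library, a bar at the mean and a line of 1 SD either side. Irs1 stood at 52.5 to 55.7 CPM at P5 and at no more than 26.6 CPM in any later library, whereas Irs2 was highest at 3 to 5 weeks.

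Igf1, the gene of the growth factor itself, was highest at P5. Its levels there were 36.3, 13.7 and 37.8 CPM in replicates 1, 2 and 3, and at 3 weeks 12.6, 8.02 and 12.9 CPM. Igf1 fell 2.61-fold between these ages (log2 fold change -1.39 ± 0.29 SE, edgeR adjusted p = 2.52e-04), and the groups did not overlap. P5 replicate 2 stood with the older animals: its 13.7 CPM lay inside the range of 7.45 to 18.3 CPM over the 25 libraries after P5. That library also had the highest meninges marker sum (234.9 CPM, against 48.3 and 153.1 in the other P5 libraries) and the highest P5 choroid plexus sum (346.8 against 9.998 and 12.7), and their part in its Igf1 level was not tested. Without it the log2 fold change was -1.73, with P5 replicate 3 alone -1.76, and over single libraries left out it ran from -1.73 to -1.16, called each time.

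After 3 weeks Igf1 was called in none of the comparisons of ages by edgeR over the 28 libraries. It did still pass the test over the ages without P5. The age means ± SD were 15.03 ± 2.44 CPM at 4 weeks (n = 4), 12.0 ± 1.80 at 5 weeks (n = 4) and 16.8 ± 0.9996 at 2 months (n = 3). From 6 months on the means were 10.98 ± 3.54, 9.98 ± 2.43, 11.1 ± 1.47 (n = 3 each) and 9.99 ± 2.35 CPM (n = 2). The 3 libraries at 2 months, 16.1, 16.3 and 17.9 CPM, all lay above the 4 at 5 weeks, 11.8, 14.6, 11.4 and 10.4 CPM, but the difference did not pass (log2 fold change 0.48 ± 0.27, edgeR adjusted p = 0.243). A fit on those ages alone called it (adjusted p = 0.0394). Microglia, a source of Igf1 in the young brain, had a marker sum of 136 to 148.8 CPM at P5 and 234.3 to 380.6 CPM later. No microglia marker was at 0, and all 7 rose between P5 and 3 weeks. The part of microglia in the Igf1 levels was not tested. In bulk tissue, fewer cells of a type and less RNA per cell cannot be told apart.

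Igf1r, the IGF1 receptor gene, did not change between P5 and 3 weeks by the test. Its levels were 58.3, 62.3 and 58.0 CPM at P5 and 56.3, 52.4 and 60.4 CPM at 3 weeks (log2 fold change -0.08 ± 0.10, 95% interval -0.29 to 0.13, edgeR adjusted p = 0.517). Its level differed over the 9 ages (adjusted p = 5.3e-04) with its lowest mean at 3 weeks and its highest at 18 months. It ranged from 57.2 to 66.4 CPM at 4 weeks, 65.4 to 73.6 at 5 weeks, 70.8 to 80.1 at 6 months, 64.1 to 80.0 at 12 months and 78.8 to 83.0 CPM in the 18-month libraries, and was 70.5 and 75.1 CPM in those of 24 months. The 5-week libraries all lay above the 3-week ones, with a log2 difference of 0.29 ± 0.09 that was not called across all genes (adjusted p = 0.139). It was called with only these ages in the fit (adjusted p = 0.0467) and was 0.14 with the library set as a term (adjusted p = 0.632). The library set is a split of these young libraries by Bpifa2, a gene not expected in brain: 5 libraries, all those of 3 weeks plus the 4-week replicates 1 and 2, held 33.98 to 46.99 CPM, and the rest held 0.

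Insr, the insulin receptor gene, dipped after P5. The P5 libraries stood at 68.98, 69.1 and 68.9 CPM and the 3-week ones at 53.8, 53.6 and 58.3 CPM, with no overlap. The fall was small, 1.25-fold (log2 fold change -0.32 ± 0.10, edgeR adjusted p = 0.00699). With P5 replicate 3 alone the size was the same, -0.33, and the adjusted p 0.0643. Insr was at 51.9 to 59.1 CPM at 4 weeks and 60.8 to 63.6 at 5 weeks, and from 6 months on it stood at 65.5 to 77.1 CPM. Its 6-month libraries lay above the 5-week ones without passing (0.23 ± 0.09, adjusted p = 0.0986), and passed with those ages alone in the fit (adjusted p = 0.00962).

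At 2 months 1 library stood apart in both receptors. Replicate 11 held Igf1r at 56.8 CPM and Insr at 45.3 CPM, and replicates 12 and 13 held 80.3 and 78.7 CPM of Igf1r and 69.8 and 68.0 CPM of Insr. It was also the lowest of all libraries for Irs2, at 38.0 CPM, and for the hypothalamus marker sum, at 57.8 CPM. Its thalamus marker sum was 1222 CPM and its midbrain and hindbrain sum 132.1 CPM. Cell type markers set it apart too: its astrocyte sum, 5498 CPM, was the highest of all libraries. Its microglia sum, 234.3 CPM, was the lowest after P5. The part of these tissues and cell types in its low receptor levels was not tested.

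Per length, Insr exceeded Igf1r most at P5. The ratio of Insr to Igf1r in CPM per kb of exon was 1.36 to 1.45 in the P5 libraries and 0.97 to 1.25 in the 25 later ones, with no overlap. Its mean was 1.42 ± 0.05 (SD, n = 3) at P5, 1.199 ± 0.04 (n = 3) at 3 weeks and 1.03 ± 0.05 (n = 3) at 2 months.

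The adaptor genes went opposite ways after P5. Irs1, the first IRS adaptor gene, was at 52.7, 52.5 and 55.7 CPM at P5 and at 25.2, 24.5 and 26.5 CPM at 3 weeks. This 2.11-fold fall (log2 fold change -1.08 ± 0.08, edgeR adjusted p = 2.67e-11) had the smallest adjusted p of the members' changes, and with P5 replicate 3 alone it was -1.14. Irs1 was not called in any later comparison: all 25 later libraries lay between 18.2 and 26.6 CPM, the age means ran from 21.3 CPM at 24 months to 25.5 CPM at 2 months, and without P5 Irs1 no longer passed the test over the ages (adjusted p = 0.0847).

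Irs2, the adaptor gene tied to hypothalamic insulin action, was at 54.4, 57.1 and 53.1 CPM at P5 and at 72.8, 88.8 and 85.9 CPM at 3 weeks. It rose 1.51-fold (log2 fold change 0.59 ± 0.15, edgeR adjusted p = 0.00191) with no overlap, and by 0.63 with P5 replicate 3 alone. Irs2 was at 54.1, 79.3, 80.3 and 90.2 CPM at 4 weeks, replicate 1 being at the P5 level, and at 95.2, 84.0, 94.7 and 77.9 CPM at 5 weeks. That 4-week library had the lowest hypothalamus marker sum of the 3-week to 5-week libraries (475.8 CPM) and the highest thalamus sum of all (1305 CPM); their part was not tested. The young libraries also stand apart by a pair of unrelated genes. Where Bpifa2 was 0 among them, Rn7s2, a small structural RNA gene, stood at 21.7 to 29.6 CPM. Both genes together summed to at most 1.78 CPM at P5 and at 2, 6 and 12 months and to at most 5.74 CPM at 18 months, and Rn7s2 was again high, at 59.0 and 60.0 CPM, at 24 months, where Irs2 was 62.8 and 65.2 CPM. The part of this set in the higher Irs2 at 3 to 5 weeks was not tested.

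In adults Irs2 was lower again. It was at 38.0, 63.0 and 57.8 CPM at 2 months and at 60.0, 59.0 and 61.5 CPM at 6 months, below every 5-week library at both ages. Against 5 weeks, 1 of the 10 members was called at 2 months, Irs2, lower (16.6% of all genes were called, 9.43% lower), and 2 members at 6 months, Irs2 and Igfbp3, both lower (13% called, 8.39% lower). These comparisons share the 5-week libraries. For Irs2 the log2 fold changes were -0.73 ± 0.15 at 2 months (edgeR adjusted p = 0.00148) and -0.55 ± 0.14 at 6 months (edgeR adjusted p = 0.0141). From 6 to 24 months Irs2 stayed between 53.2 and 65.6 CPM.

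Library quality differed between these ages. Reads set aside for low alignment quality made up 9.31 to 11.2% of the total at 5 weeks, and 5.00 to 5.98% from 2 months on. At P5 they made up 5.74 to 6.26%. The 3-week libraries had 7.01 to 7.17%, and the log2 difference of Irs2 at 5 against 3 weeks was 0.09 ± 0.14, not called (-0.25 with the library set as a term, adjusted p = 0.665). Within 4 weeks, replicates 3 and 4 had 9.27 and 9.19% and replicates 1 and 2 had 6.59 and 7.30%. Between 5 weeks and 6 months 4 of the 5 oligodendrocyte markers fell, from a sum of 8778 to 11453 CPM to one of 5571 to 8074 CPM, and 2 of 4 precursor markers (Pdgfra, Cspg4, Gpr17, Olig1) fell, from 503 to 577.3 down to 324.2 to 382.2 CPM. At 2 months the oligodendrocyte sum was 10119 to 15323 CPM, with 0 of the 5 markers called against 5 weeks by edgeR. Tissue markers and the library set differed too. Beside the lower hypothalamus sums given above, 4 of 6 tested midbrain and hindbrain markers were called higher at 2 months and 3 at 6 months. Bpifa2 and Rn7s2 summed to 24.2 to 29.6 CPM at 5 weeks, and to at most 0.435 and 1.78 CPM at 2 and 6 months. The part of read quality, these cell types, these tissues and the library set in the falls of Irs2 and Igfbp3 after 5 weeks was not tested. Nor was the part of read quality in the rise of Irs2 between P5 and 3 weeks.

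**Figure D2:**
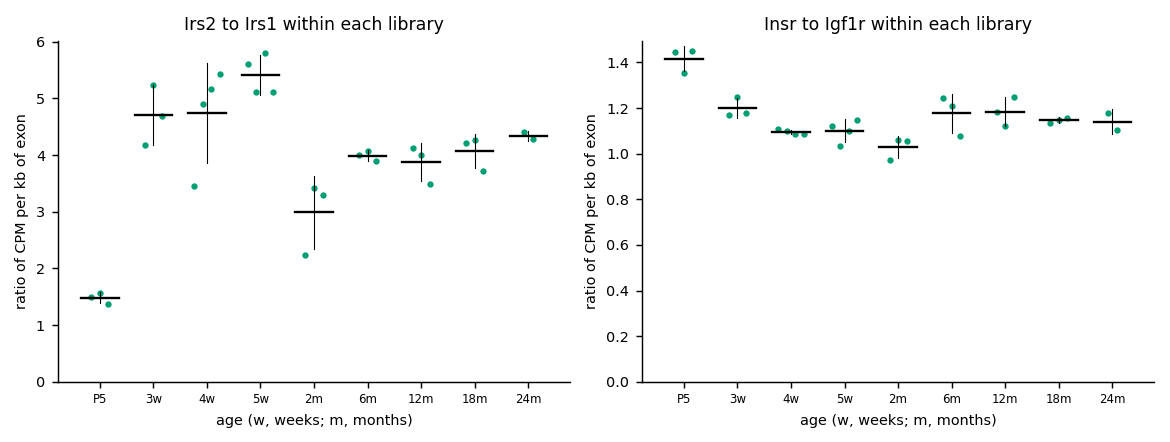
Ratio of Irs2 to Irs1 (left) and of Insr to Igf1r (right) within each library, from CPM per kb of exon, against age, with 1 point per library, the mean as a bar and 1 SD as a line. The Irs2 to Irs1 ratio was 1.38 to 1.57 at P5 and at least 2.25 in every later library.

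Because the adaptors moved apart, their balance shifted. Per kb of exon, Irs2 exceeded Irs1 by 1.48 ± 0.10 times (SD, n = 3) at P5, 4.70 ± 0.53 (n = 3) at 3 weeks, 4.74 ± 0.88 (n = 4) at 4 weeks and 5.41 ± 0.35 (n = 4) at 5 weeks. It was 2.99 ± 0.65 (n = 3) at 2 months and lay between 3.49 and 4.40 in the 11 libraries from 6 to 24 months. No library after P5 overlapped the P5 ratios. These ratios use the full exon length of Irs1, of which 2822 bases overlap Gm9747 on the opposite strand. Their size therefore depends on the strand setting, which is not known. The 5-week ratios, 5.11 to 5.80, lay above every library from 2 months on.

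The binding protein genes were highest at P5, Igfbp6 excepted. Igfbp5, whose protein also binds the extracellular matrix, was the member with the highest CPM at every age. It was at 345, 301 and 354 CPM at P5 and at 194, 173 and 214 CPM at 3 weeks, 1.72-fold lower (log2 fold change -0.78 ± 0.11, edgeR adjusted p = 9.4e-07). It kept to 161 to 235.5 CPM afterwards, save for 237.5 and 289.5 CPM in 12-month replicates 27 and 28. Its 12-month mean of 248 ± 36.9 CPM was the highest after P5, but the step from 205 ± 29.6 CPM at 6 months was not called (0.28 ± 0.11, adjusted p = 0.426), and without 12-month replicate 28 it was 0.16.

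Igfbp2, a binding protein gene of the developing brain that choroid plexus and meninges also express, fell most of the members. It was at 111, 134 and 127 CPM at P5 and at 44.6, 52.7 and 32.8 CPM at 3 weeks, a 2.87-fold fall (log2 fold change -1.52 ± 0.44, edgeR adjusted p = 0.00558) without overlap. With P5 replicate 3 alone the log2 fold change was -1.56 (adjusted p = 0.0416). After P5 it varied widely within an age. It was at 33.3, 77.5, 43.5 and 23.6 CPM at 5 weeks, at 96.2, 63.3 and 58.6 CPM at 2 months, and at 19.7, 35.04 and 84.3 CPM at 12 months. The lowest levels were the 15.6 and 18.4 CPM of the 24-month libraries.

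Igfbp3, the gene of the main IGF carrier of serum, was at 26.7, 20.7 and 24.7 CPM at P5 and at 14.9, 16.1 and 14.4 CPM at 3 weeks. It fell 1.59-fold (log2 fold change -0.67 ± 0.13, edgeR adjusted p = 9.11e-05). At 5 weeks it was at 14.1, 13.01, 12.6 and 13.4 CPM and at 6 months at 10.48, 9.84 and 10.01 CPM, 1.31-fold lower (-0.39 ± 0.12, adjusted p = 0.0401) with no overlap. This later fall was not called when any 1 of the 7 libraries was left out (adjusted p = 0.0574 to 0.118). It was also not called with upper-quartile scaling (-0.35, adjusted p = 0.0606). From 12 to 24 months Igfbp3 spread from 7.54 to 13.7 CPM.

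Igfbp4, the gene of an inhibitory binding protein that the protease PAPP-A cleaves, was at 49.3, 54.2 and 47.5 CPM at P5 and at 25.7, 20.6 and 17.4 CPM at 3 weeks. It fell 2.37-fold (log2 fold change -1.24 ± 0.29, edgeR adjusted p = 8.86e-04). Later libraries ranged from 11.3 to 35.4 CPM, highest at 2 months with 35.4, 31.9 and 24.1 CPM. The 2-month difference from 5 weeks (0.67 ± 0.27) was not called (adjusted p = 0.0985). It was called without 5-week replicate 2, whose 29.3 CPM overlapped the 2-month values (0.95, adjusted p = 0.0171).

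Igfbp6, whose protein prefers IGF2 over IGF1, was the lowest and most variable member. It was at 0.435, 2.39 and 2.01 CPM at P5, 3.07, 5.82 and 0.863 CPM at 3 weeks, and 11.1, 8.02 and 5.30 CPM at 2 months. Neither the P5 to 3-week difference (0.98 ± 0.66, adjusted p = 0.211) nor that of 2 months over 5 weeks (1.54 ± 0.58, adjusted p = 0.0747) was called. The 2-month libraries lay above all 5-week ones, and a fit on 2 months and 5 weeks alone called the difference (adjusted p = 0.0253). Its mean coefficient of variation within an age was 53.8%, against 31.9% for Igfbp2, 24.8% for Igfbp4 and 5.36% to 22.3% for the others.

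**Figure D3:**
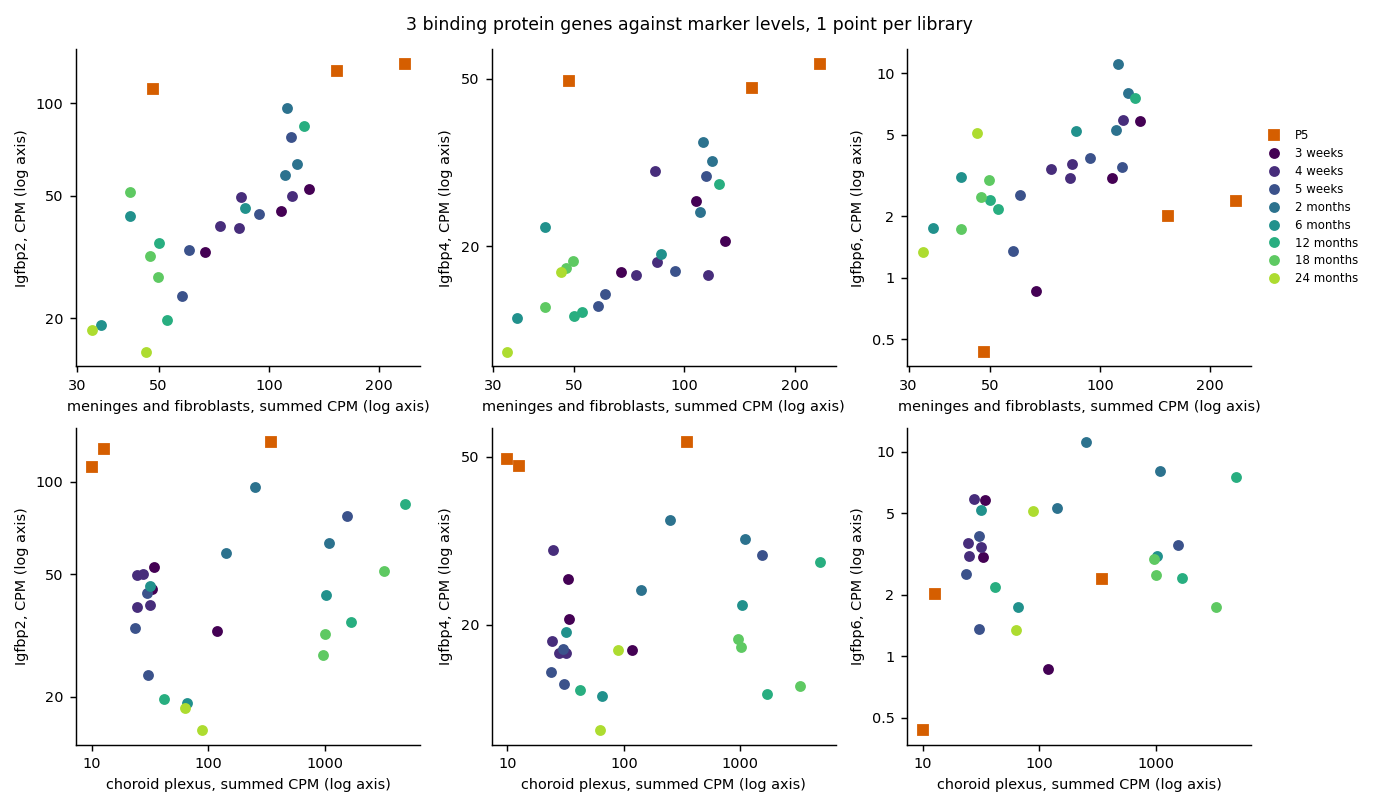
CPM of Igfbp2, Igfbp4 and Igfbp6 (vertical, log axis) against the summed CPM of 7 meninges and fibroblast markers (top) and of 6 choroid plexus markers (bottom; horizontal, log axis), 1 point per library, squares for P5. After P5 the libraries with the most Igfbp2, such as 2-month replicate 11 and 12-month replicate 28, also had meninges sums above 110 CPM.

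In some of the libraries high in Igfbp2, Igfbp4 or Igfbp6, markers of the brain coverings were high too. The meninges and fibroblast list (Dcn, Lum, Col1a1, Col1a2, Col3a1, Slc6a13, Ogn) summed to 32.9 to 128.8 CPM after P5, and the choroid plexus list (Ttr, Folr1, Kl, Kcnj13, Clic6, Aqp1) to 23.6 to 4854 CPM. In 5-week replicate 2, which had the most Igfbp2 and Igfbp4 of its age, they summed to 114.7 and 1539 CPM, against 58.0 to 94.2 and 23.6 to 30.4 CPM in the other 5-week libraries. In 12-month replicate 28, the highest of its age for all 3 genes, they were 124.4 and 4854 CPM, against 50.03 to 52.5 and 41.7 to 1685 CPM. The 2-month libraries had meninges sums of 110.5 to 119.3 CPM and choroid sums of 140.7 to 1091 CPM, and 24 months had 32.9 to 46.1 and 62.7 to 88.3 CPM. Other libraries went against this, at least for some of the genes. With a choroid sum of 3257 CPM, 18-month replicate 14 had the least Igfbp4 (14.4 CPM) and Igfbp6 (1.74 CPM) of its age. Its Igfbp2, 51.3 CPM, was the most of its age. With 1685 CPM, 12-month replicate 27 had the least Igfbp4 of its age (13.7 CPM). Its Igfbp2, 35.04 CPM, lay between those of replicates 26 (19.7 CPM) and 28 (84.3 CPM). With a choroid sum of only 24.6 CPM, 4-week replicate 1 had the most Igfbp4 of its age (30.1 CPM), and 24-month replicate 2 held Igfbp6 at 5.10 CPM with a meninges sum of 46.1 CPM. P5 replicate 1 had a meninges sum of 48.3 and a choroid sum of 9.998 CPM, with Igfbp2 at 111 and Igfbp4 at 49.3 CPM. Between P5 and 3 weeks 0 of the 7 meninges and 0 of the 6 choroid markers were called by edgeR. The part of these tissues in the members' levels, at P5 and later, was not tested.

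**Figure D4:**
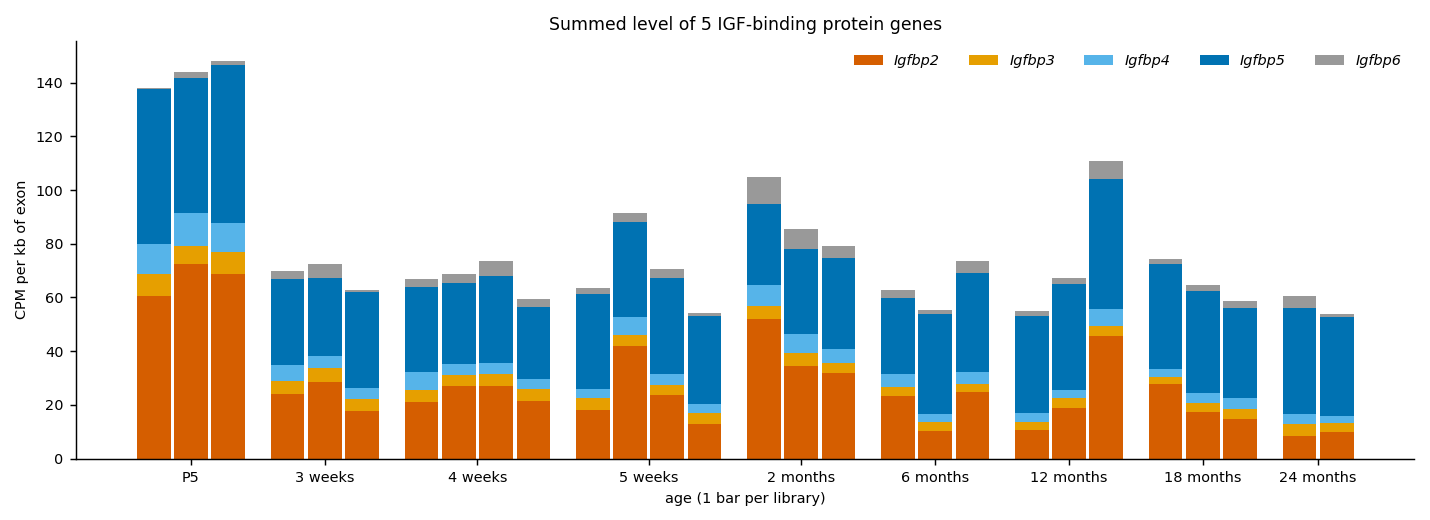
Summed level of Igfbp2, Igfbp3, Igfbp4, Igfbp5 and Igfbp6 in CPM per kb of exon (vertical axis, from 0), 1 stacked bar per library, ordered by age. The P5 bars reach 137.9 to 148.2, above every later bar, and the orange Igfbp2 share is smallest at 24 months.

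Summed per kb of exon, the 5 binding protein genes stood at 143 ± 5.17 (SD, n = 3) at P5 and at 68.3 ± 5.01 (n = 3) at 3 weeks. Later libraries ranged from 54.0 to 110.8, the highest being 12-month replicate 28. Igfbp2 made up 43.8 to 50.5% of the sum at P5, 28.3 to 39.4% at 3 weeks and 13.9 to 18.4% at 24 months, and Igfbp5 made up 34.9 to 41.7%, 39.8 to 56.9% and 64.8 to 68.3%. In 2-month replicate 11 Igfbp2 took 49.7% and Igfbp5 28.6%. The sum was 37.6 to 103.8 times the Igf1 level per kb at P5 and 48.2 to 89.4 times at 3 weeks, which overlapped.

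Ordered by mean level per kb of exon, Igfbp2 led at P5 with 67.3 CPM per kb, followed by Igfbp5 with 55.5, and their libraries did not overlap. Igfbp4 came next at 11.4, then Irs2 at 8.67 and Igfbp3 at 7.67, which overlapped each other. Irs1 at 5.87, Insr at 5.02 and Igf1r at 3.55 followed without overlap, and then Igf1 at 2.96, whose libraries reached across Igf1r, and Igfbp6 at 1.45. The place of Irs1 carries the limit of its shared exon bases given above. At 3 weeks Igfbp5 led with 32.3 CPM per kb, Igfbp2 had 23.5 and Irs2 had 13.1, with no overlap between neighbours, and Igf1 was last with 1.13. Igfbp3, Igfbp4 and Insr, from 4.83 down to 4.02, each overlapped the next. At 24 months Igfbp5 was first with 38.0 CPM per kb and Igf1 last with 1.01. Irs2, with 10.1, then stood just above Igfbp2, with 9.19, and their ranges overlapped between 9.93 and 9.95.

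Between 3 and 5 weeks, the weeks around puberty, 0 of the 10 members were called by edgeR, with 1 at an unadjusted p below 0.05 (Igf1r) and 0 by DESeq2. Of all genes 2.15% were called. The members' median log2 fold change was 0.07. For Irs1 the log2 fold change of -0.11 had a 95% interval of -0.27 to 0.04, for Irs2 0.09 had -0.20 to 0.39, and for Igfbp2 0.04 had -0.82 to 0.90. All 3-week libraries held Bpifa2 and no 5-week library did, so age and library set differ together over this step. The intervals leave the set out and do not bound a change by age. With the set as a term, the Irs2 estimate given above lay below its interval.

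**Figure D5:**
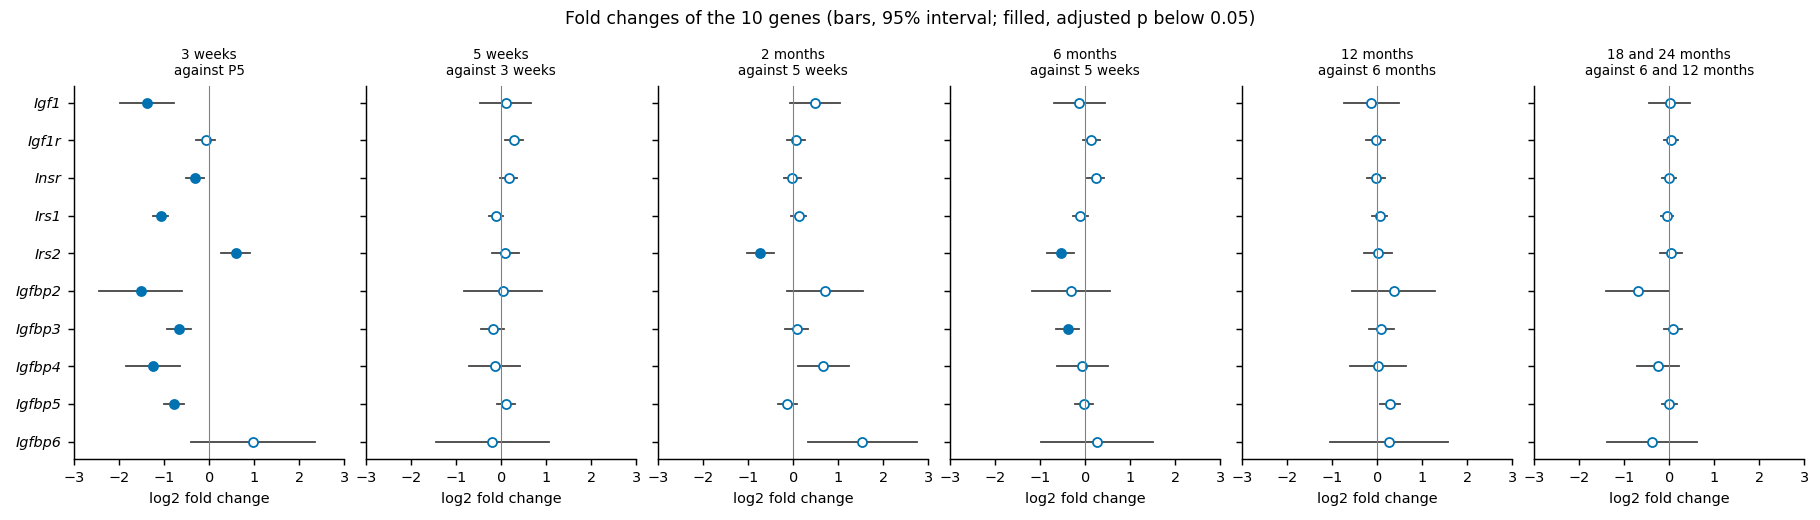
Log2 fold change of each member in 6 comparisons of ages (horizontal axis), with the 95% interval as a line, and a filled point where the edgeR adjusted p was below 0.05. Filled points are 8 at 3 weeks against P5, 1 at 2 months and 2 at 6 months against 5 weeks, and 0 elsewhere.

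No member was called as animals aged. From 6 to 12 months 0 of the 10 passed by edgeR and by DESeq2, and 1, Igfbp5, had an unadjusted p below 0.05. Of all genes 0% were called, with 1548 at an unadjusted p below 0.05. For 18 and 24 months against 6 and 12 months 0 members passed by either tool, and 0 had an unadjusted p below 0.05. Of all genes 5, or 0.0296%, were called, with 1107 at an unadjusted p below 0.05. For Igf1, Igf1r, Insr, Irs1, Irs2 and Igfbp5 the log2 fold changes lay between -0.05 and 0.04, and the widest of their 95% intervals was that of Igf1, -0.45 to 0.46. Igfbp3 was at 0.08 (-0.13 to 0.28), Igfbp4 at -0.25 (-0.71 to 0.22) and Igfbp6 at -0.39 (-1.39 to 0.60). Bpifa2 and Rn7s2 summed to 59.1 to 60.0 CPM at 24 months, and to at most 1.78 and 0.339 CPM at 6 and 12 months. The part of this difference was not tested.

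Igfbp2 had the largest difference of the members in old age. Its libraries stood at 42.9, 19.1 and 45.6 CPM at 6 months, 19.7, 35.04 and 84.3 at 12 months, 51.3, 31.9 and 27.3 at 18 months and 15.6 and 18.4 at 24 months. The ages overlapped, and the log2 fold change of -0.70 ± 0.34 was not called (95% interval -1.41 to 0.00, adjusted p = 0.767). It was -0.15 for 18 months and -1.26 for 24 months taken alone. Without 12-month replicate 28, with its 84.3 CPM and a choroid sum of 4854 CPM, it was -0.32. A slope over the 11 libraries from 6 to 24 months called 0 members. The share of all genes that the slope called was not recorded.

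Of 60 other genes of the pathway, listed by role, 57 were tested. Ins1, Igfbp1 and Igfals were too low to test. Between P5 and 3 weeks 16 rose, 19 fell and 22 were not called, with a median log2 fold change of -0.17, where 29.8% of all genes tested rose and 29.3% fell, so that the counts lie near the background. Among the binding protein proteases and their inhibitors 1 rose and 3 fell of 5. Pappa, the protease that cleaves IGFBP4, fell from 13.3 to 2.94 CPM (log2 fold change -2.17 ± 0.24, edgeR adjusted p = 3.94e-08), so that the protease gene and its substrate's gene Igfbp4 fell over the same weeks. Socs2, a feedback inhibitor of growth hormone signalling, fell (-1.67 ± 0.17) and Igfbpl1, a binding protein relative of immature neurons, fell most (-3.02 ± 0.84). The markers of progenitors and immature neurons fell over the same step, as given above. The 3 largest rises were Deptor, an mTOR inhibitor (1.90 ± 0.19), Igfbp7, a low-affinity relative found in vessels (1.38 ± 0.15), and Inppl1, the lipid phosphatase SHIP2 (1.33 ± 0.09). Of the other adaptors 5 rose and 3 fell of 11, so that no single direction covered the adaptor class to which Irs1 and Irs2 belong.

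In the later steps fewer genes were called, in the pathway as over all genes (2.15%, 16.6% and 13% in the next 3 comparisons). Between 3 and 5 weeks 0 rose and 2 fell of 57, Inppl1 (-0.49 ± 0.08) and Pik3r3, a PI3-kinase regulatory subunit gene (-0.30 ± 0.07). At 2 months against 5 weeks 2 rose and 9 fell. Irs4, the adaptor gene largely restricted to hypothalamus in brain, fell from 71.6 to 23.9 CPM (-1.58 ± 0.22, edgeR adjusted p = 1.07e-04), at the age with few hypothalamus markers; at 6 months it stood at 64.6 ± 9.12 CPM (n = 3). Irs2 means were 52.9 CPM at 2 months and 60.2 CPM at 6 months, against 88.0 CPM at 5 weeks. At 6 months against 5 weeks 1 rose, Rictor of the second mTOR complex (0.36 ± 0.09), and 8 fell, led by Igfbp7 (-1.07 ± 0.14), Inppl1 (-0.59 ± 0.08) and the FoxO gene Foxo3 (-0.46 ± 0.13). Of the 57, 0 were called from 6 to 12 months and 0 in the oldest ages, by edgeR.

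By correlation of log2 CPM over the 28 libraries, given as a description over 11720 genes, the 3 genes most like each member in pattern were as follows. Irs1 went with Ulk2 (Pearson r = 0.974), Tmem127 (0.971) and Ybx1 (0.97), and Igf1 with C2cd2 (0.921), Kitl (0.918) and Agtpbp1 (0.904). For Irs2 they were Lrrc47 (0.927), Cdk13 (0.91) and Rptor (0.909), the last a subunit of mTOR complex 1, and over the 25 libraries after P5 Rptor still had 0.937. Insr went with Ash1l (0.953), Kmt2a (0.945) and Ino80d (0.944), and Igf1r with Phc3 (0.89), Fryl (0.882) and Esyt2 (0.878).

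Among binding proteins, Igfbp2 went over the 28 libraries with Cdkn1c (r = 0.88), Ifitm2 (0.867) and Igfbp4 (0.858). Over the 25 libraries after P5 its closest genes were Igf2 (0.917), the second IGF ligand gene, Fcgrt (0.906) and Sod3 (0.873). Igf2 was at 144.8 ± 80.0 CPM at P5 (n = 3) and 35.9 ± 5.49 CPM at 24 months (n = 2), and was called in none of the 6 comparisons. Igfbp3 went with Ttc9b (0.941), Igfbp4 with Cat (0.887) and Igfbp5 with Lrp8 (0.889). The points of each correlation share their libraries, and so their tissue makeup and depth.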

How the data were processed

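RNA from the hypothalamus was sequenced in 29 libraries at 9 ages, and 28 were used. The submitters' processing notes name HISAT2 2.1.0, a read aligner, HTSeq 0.9.1, a read counter, and the genome mm10 (GRCm38). What annotation and strand setting they used, and whether reads were trimmed, is not given in the sources used here. The deposited values are raw counts per gene symbol, with 5 HTSeq summary lines that held 26.06 to 32.46% of a library's total and were removed. The 24-month file with 1385 genes above 0 (fewer than 5000) was left out, which departs from the 3 libraries of that age in the study's design.

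The deposited counts were turned into CPM with TMM library sizes (edgeR 4.0.16, R 4.3.3). Log2 values used a prior count of 1. CPM per kb divided by the exon length of GENCODE M21. Genes were filtered with filterByExpr by age and fitted with edgeR's robust quasi-likelihood method, with 1 mean per age over the 28 libraries, so that all ages shared 1 estimate of the spread. Tests were two-sided, p-values were adjusted by Benjamini-Hochberg over the 16916 genes, and a gene was called below 0.05. The ± of a log2 fold change is 1 SE and that of a level is 1 SD over libraries. DESeq2 1.42.0, other scaling, no filter, fits on the ages compared, a replicate block and each library left out were alternatives. No pair of libraries of an age agreed within sampling noise (chi-square per gene of at least 6.074).

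The 10 members, the 60 pathway genes and the marker lists were chosen with earlier results of these data known. 1 oligodendrocyte marker of these lists is not reported here, and sums and counts leave it out. All members are named in every comparison. Pathway genes are named by rule: the 3 highest and 3 lowest called fold changes per comparison where the age with more reached a mean of 5 CPM. Irs4, Irs2 and Igf2 levels at further ages were added after their values were seen. On simulated counts for 3 weeks against P5 (16916 genes, 200 changed), 64.5% of genes changed 1.5-fold and 84% of those changed 2-fold were recovered. For 6 months against 5 weeks these were 65.5% and 84%. In the real data 59% and 13% of all genes were called in these comparisons. The adjustment of p-values depends on that share, so the recovery need not hold there.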

Additional observations from a re-analysis of the deposited data

Results flagged for a closer look

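Igfbp4 in 4-week replicate 1 stood apart from its age: 30.1 CPM, against 17.1 to 18.3 CPM in the other 3 libraries, a gap of 0.908 of the whole range. Of the 10 members at the 2 ages with 4 libraries, 20 groups were examined in this way, and chance marks about 1 in 20. The same library had the lowest Irs2 of its age, 54.1 CPM. Its Igfbp2, 39.3 CPM, was also the lowest of its age, just below the 39.8 CPM of replicate 4.

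The 24-month file left out of the comparisons held 2377580 counts in 1385 genes, 1080 of them on chromosome 1. It counted 3 members, all on that chromosome: Irs1 with 877 counts, Igfbp2 with 1163 and Igfbp5 with 9096, all far above a count of 3. Scaled to one total of chromosome 1 counts per library (CPM of that chromosome), Irs1 was at 453.3 and Igfbp5 at 4701, against 386.8 to 401.3 and 4034 to 4418 in the other 24-month libraries. Igfbp2 was at 601.1 against 292.2 to 335, which lay inside the 500.7 to 980.7 of 18 months and above both complete 24-month libraries. The file therefore does not repeat the low Igfbp2 of those libraries, and its values have no test.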

How the results depend on the processing

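The counts of members called under edgeR were the same with DESeq2 and with no filter on low counts in all 7 tests, and no called value changed sign. Upper-quartile scaling called 1 member instead of 2 at 6 months against 5 weeks. With only the ages compared in the fit, 1 instead of 0 was called at 5 against 3 weeks, 3 instead of 1 at 2 months and 3 instead of 2 at 6 months against 5 weeks. Leaving out 1 library at a time gave 9 to 10 members over the ages, 8 at 3 weeks against P5, 1 to 2 at 2 months and 1 at 6 months against 5 weeks, and 0 in the others. The test over the ages called 6 members without P5 (Irs1, Igfbp2 and Igfbp4 lost) and 9 without 2 months. Shares of all genes called under these alternatives were not recorded. Igfbp6 entered it (adjusted p = 0.0438 to 0.0487) without 3-week replicate 2 or 3, 12-month replicate 28 or 24-month replicate 2. The cause was not tested. The alternatives gave 500 single-gene values, with only the lowest and highest per gene kept for the libraries left out. Of the 500, 462 counted as the same: called values kept their call and sign, and uncalled ones stayed uncalled within 1 SE. Values of the test over the ages, and slopes, were judged by the call alone. Another 25, not called either way, moved by at least 1 SE. A further 6 were called where the main value was not, and 7 were not called where it was.

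Whether replicate numbers pair the libraries cannot be told from so few libraries per age. Same-numbered deviations correlated at 0.0616, 0.241 and 0.145 for P5 and 3 weeks, and at -0.302, -0.524 and -0.342 for 3 and 5 weeks. Differently numbered ones ran from -0.341 to 0.197 and from -0.261 to 0.524. With the replicate block 8 and 0 members were called, as without it. With 2 to 4 libraries per age, Igfbp2, Igfbp4 and Igfbp6 have wide intervals.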
